A study of Arabidopsis thaliana with 24 samples.

Results

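The genes described here are those of the Arabidopsis thaliana chloroplast genome that encode subunits of photosystem I (psa), photosystem II (psb), the cytochrome b6f complex (pet), the chloroplast ATP synthase (atp), the NDH complex (ndh) and the large subunit of Rubisco (rbcL). They were found as the probe sets that the array's gene table pairs with a single chloroplast-encoded gene whose symbol starts with psa, psb, pet, atp, ndh or rbcL. There were 43 such probe sets of 22746 that are not controls: 5 for photosystem I, 15 for photosystem II, 6 for cytochrome b6f, 6 for the ATP synthase, 10 for NDH and 1 for rbcL. Of the 44 chloroplast gene symbols of this kind in RefSeq's TAIR10.1 annotation, only ndhB was left out, since its 2 gene copies share 1 probe set.

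RNA from leaves of 20-day-old plants was hybridized to 24 ATH1 microarrays of Affymetrix. There were 12 groups with 2 biological replicates each, and a sample held leaves from at least 15 seedlings. The groups were the CBF3 overexpressing line and its wild type Ws, the M6PR overexpressing line and its wild type Col-0 (Col below), and the SOS1 overexpressing line and its wild type Col(gl), each at 100 mM NaCl and at 0 mM NaCl. CBF3 is a transcription factor of the cold response, M6PR is the mannose-6-phosphate reductase of mannitol synthesis, and SOS1 is a plasma membrane sodium/proton antiporter. NaCl was raised in steps from day 14, for 6 days, in short days with 10 h light. The labels used here do not give the promoters that drive the transgenes or say whether a line is a single transformant. The free-text description of the CBF3 samples names Col and that of the M6PR samples names Ws, so groups follow the titles, source names and genetic background labels. The comparisons ask how a line differed from its wild type, and how 100 mM NaCl differed from 0 mM NaCl in a genotype.

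Photosystem II, cytochrome b6f and photosystem I carry electrons from water to NADPH across the thylakoid membrane, the ATP synthase uses the resulting proton gradient, and the NDH complex returns electrons to the plastoquinone pool in cyclic electron flow. Rubisco fixes carbon dioxide with a large subunit from the chloroplast and a small subunit from the nucleus. Chloroplast genes are transcribed mostly as multi-gene (polycistronic) transcripts that are cut and trimmed afterwards, and their mRNAs, unlike nuclear ones, mostly lack a stable poly(A) tail. The signals below are log2 values as deposited, and differences are in log2 units. In leaf samples of this kind, fewer chloroplasts or cells and less RNA in each cannot be told apart.

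The leaf label was checked with nuclear genes of photosynthesis and markers of other organs. On the 22 arrays other than the pair described next, PSAE-1 (photosystem I) lay between 13.21 and 13.61, LHCB4.1 (photosystem II antenna) between 13.24 and 13.61 and ATPC1 (ATP synthase gamma subunit) between 12.82 and 13.06. The measured root marker EXPA7 lay between 4.22 and 5.17 and the anther marker AMS between 3.67 and 4.11. No single-gene probe set was found for the 5 seed markers or the 4 leaf senescence markers.

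A pair of arrays stood apart from the other 22: replicate 1 of Ws at 100 mM NaCl and replicate 1 of Col at 100 mM NaCl. With each probe set set against its own median over the other 22 arrays, the median of the 43 was -2.29 on the Ws array and -1.37 on the Col array, against -0.54 to 0.29 on the other 22. Control probe sets moved on the same arrays. The signal for 25S rRNA was 4.98 on the Ws array and 4.52 on the Col array, against 6.58 to 10.36 on the others. The mean of the 3 probe sets for the dap spike-in, a bacterial control RNA, was 4.43 and 4.82, against 6.80 to 8.95. The 3′ probe set of actin exceeded its 5′ probe set by 3.84 on both arrays, against 2.15 to 3.15 on the others. The part these controls have in the chloroplast signals was not tested, and each comparison below is given over all 24 arrays and over the 22.

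**Figure D1:**
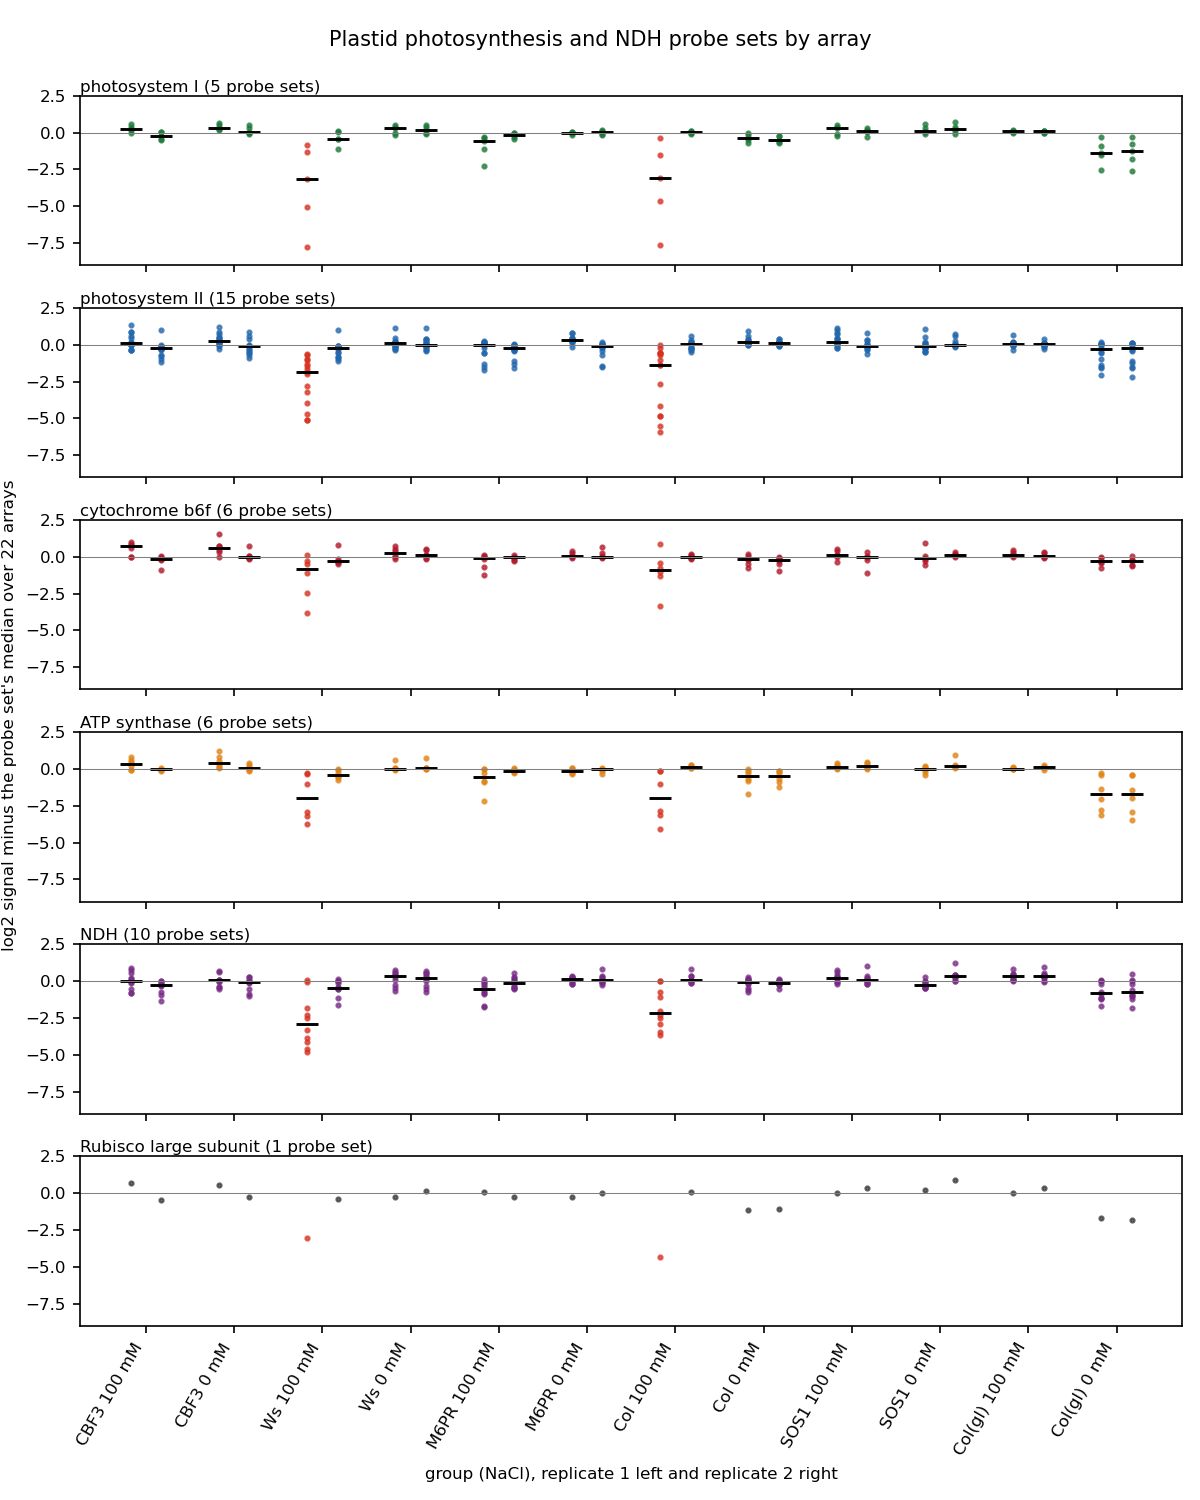
Log2 signal of the 43 probe sets on each of the 24 arrays, minus the probe set's median over the 22 arrays other than the pair in red; each point is a probe set, each bar the median of its complex on that array, with replicate 1 left of replicate 2. The median bars for photosystem I stand at -3.13 and -3.07 on the red arrays (Ws and Col at 100 mM NaCl, replicate 1) and between -1.38 and 0.32 on the others, whose lowest values belong to Col(gl) at 0 mM NaCl.

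**Figure D2:**
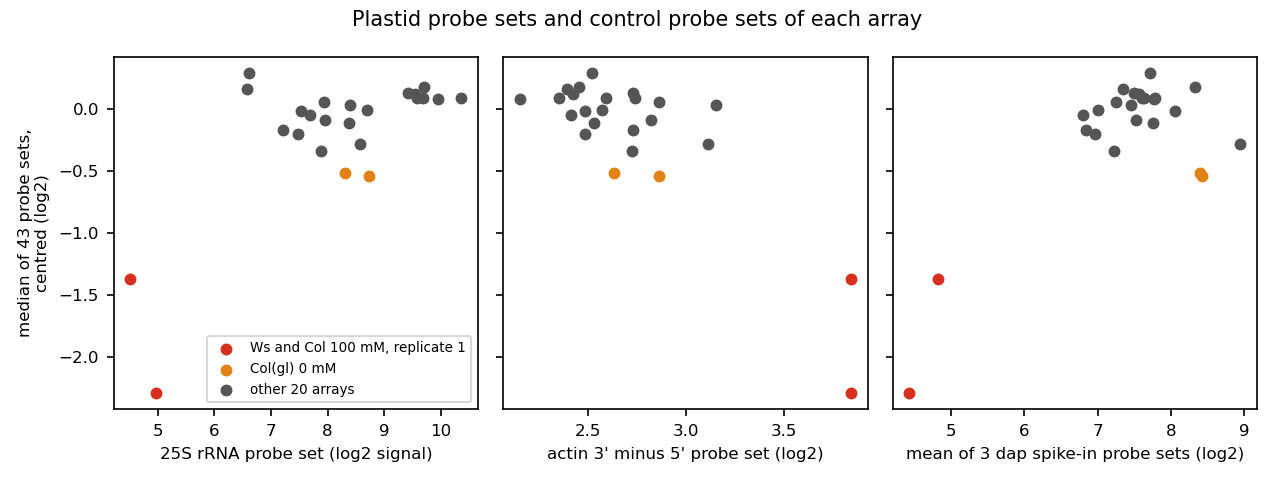
Median of the 43 centred probe sets on each array (vertical axis, log2) against the 25S rRNA probe set, the actin 3′ minus 5′ difference and the mean of 3 dap spike-in probe sets (horizontal axes, log2). The pair in red lies outside the range of the others on all 3 controls, while both Col(gl) arrays at 0 mM NaCl (orange) are low for the chloroplast genes and inside the range for the controls. Their dap means (8.43 and 8.40) are near the top of that range, below only 8.95 on replicate 1 of M6PR at 100 mM NaCl.

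The centred median on the Ws array and the Col array was -3.13 and -3.07 for photosystem I, -1.86 and -1.36 for photosystem II, -0.80 and -0.88 for cytochrome b6f, -2.00 and -1.95 for the ATP synthase, and -2.91 and -2.18 for NDH. For rbcL it was -3.03 and -4.34. Against replicate 2 of its own group, replicate 1 was lower by over 1 log2 unit for 28 of 43 probe sets in Ws and for 28 of 43 in Col, where such a gap was found for 2.53% and 2.0% of all probe sets. On the Ws array 34 of 43 lay below all of the other 22 arrays (7.86% of all probe sets), and on the Col array 28 of 43 (12.2%). The 26 probe sets for other chloroplast genes had a centred median of -1.41 on the Ws array and -1.34 on the Col array, the 18 for mitochondrial genes -0.30 and -0.37, and the 8 for nuclear photosynthesis genes -0.08 and -0.16.

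These drops and the gaps below are limited by where a probe set starts and ends. On the Ws array 13 of the 43 and on the Col array 14 of the 43 lay below the median signal of all probe sets on that array (6.07 and 6.08), so a larger fall may not show there. At the other end, signals near the top of an array may be compressed, and saturation was not checked. Gaps are given as measured, and no order between genes or complexes is read from them.

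In photosystem I, the gene for the core subunit psaA read 4.25 on replicate 1 and 10.95 on replicate 2 of Ws at 100 mM NaCl, and 4.43 on replicate 1 and 12.15 on replicate 2 of Col at 100 mM NaCl. Its partner psaB, which encodes the second large protein of the reaction centre and is transcribed with psaA, read 12.37 and 12.81 in Ws and 12.84 and 13.29 in Col. The replicate gap was -6.70 and -7.72 for psaA, against -0.44 and -0.45 for psaB. On the low arrays psaA lay above 25.9% of all probe sets in Ws and 30.1% in Col, so its gaps may understate the difference, while psaB lay above 99.3% and 99.7% there. The iron-sulphur subunit psaC lay in between, at 4.59 and 9.68 in Ws and 5.01 and 9.73 in Col, as did the small subunits psaI (gaps of -2.68 and -3.05) and psaJ (-1.40 and -1.42).

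In photosystem II, psbA, which encodes the reaction centre protein that is replaced most often in light, read 8.29 on replicate 1 and 12.05 on replicate 2 of Ws and 6.26 and 10.58 in Col. Its reaction centre partner psbD read 5.74 and 10.30 in Ws and 5.28 and 10.93 in Col. The core antenna gene psbC, whose reading frame overlaps that of psbD, had gaps of -2.62 in Ws and -5.95 in Col. The genes of cytochrome b559, psbE and psbF, and the small subunits psbL and psbJ are transcribed together. Their gaps ran from -1.32 to -0.56 in Ws and from -1.09 to -0.02 in Col. The remaining small or assembly-related genes psbI, psbK, psbM, psbN and psbZ had gaps from -1.68 to -0.50 in Ws and from -1.10 to -0.04 in Col.

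The core antenna gene psbB is the first gene of a longer transcript. The gap in Ws and in Col was -4.28 and -5.42 for psbB, -3.87 and -4.43 for psbT, -3.76 and -2.83 for psbH, and -2.32 and -1.11 for petB, which encodes cytochrome b6. For petD (subunit IV of cytochrome b6f), the last gene, it was 0.00 and -0.71. The petD probe set read between 3.80 and 5.35 on all 24 arrays, near the lowest signals of the arrays, so a fall cannot be read from it. On the low arrays psbB (4.75 in Ws and 5.03 in Col) and psbT (4.02 and 4.59) were also below the median of all probe sets, so no order of gaps along the transcript is read from these values.

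ATP synthase genes come from 2 transcripts. In the atpI-atpH-atpF-atpA transcript the gap in Ws and Col was -2.40 and -3.40 for atpI (subunit a), -2.99 and -4.16 for atpH (the subunit of the membrane ring), -2.65 and -3.12 for atpF (stator subunit b) and -0.80 and -1.21 for the catalytic head subunit atpA. In the atpB-atpE transcript it was -0.28 and -0.20 for atpB (the catalytic beta subunit) and -0.25 and -0.20 for atpE (epsilon). On the Ws array atpB and atpE read 13.43 and 13.31, and on the Col array 13.60 and 13.53, inside the range of the other 22 arrays.

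In NDH, the membrane arm gene ndhC had gaps of 0.04 in Ws and 0.11 in Col, while ndhK and ndhJ of the peripheral arm, which follow it on the same transcript, had -1.98 and -2.87, and -1.86 and -2.38. Across the transcript of ndhH, ndhA, ndhI, ndhG, ndhE, psaC and ndhD, the 7 gaps ran from -5.09 to -1.35 in Ws and from -4.72 to -1.08 in Col. The probe set of ndhF, another membrane arm gene, read between 3.30 and 4.19 on all arrays, so a fall cannot be read from it either. For rbcL the replicates read 7.50 and 10.14 in Ws and 6.20 and 10.63 in Col.

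Among the other cytochrome b6f genes, petG (a small subunit) had gaps of -4.67 in Ws and -3.50 in Col, petN (another small subunit) of -0.72 and -1.18, and petA (cytochrome f) of -0.17 and -0.30. The small subunit petL went the other way. It read 9.74 on replicate 1 and 9.15 on replicate 2 of Ws at 100 mM NaCl, and 10.51 and 9.66 in Col, and the 10.51 was the highest petL value of all 24 arrays. Across the 43 probe sets, the gaps in Ws and Col correlated (Pearson r = 0.855, Spearman rho = 0.861), as a description over probe sets that share 4 arrays and, in part, transcripts. Probe sets near the lowest signals, such as ndhF and petD, can show only small gaps in both groups. Part of the correlation may therefore come from where each probe set starts.

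**Figure D3:**
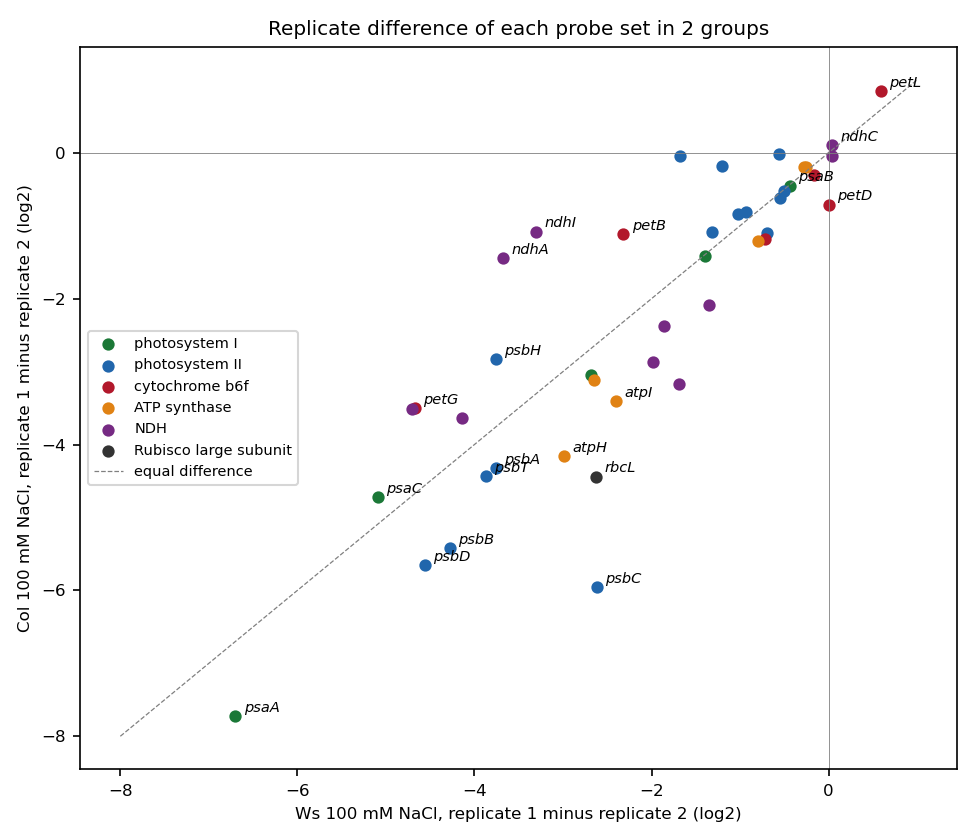
Replicate 1 minus replicate 2 (log2) for each of the 43 probe sets, in Ws at 100 mM NaCl (horizontal) and Col at 100 mM NaCl (vertical), coloured by complex; the dashed line marks equal differences. psaA lies at the lower left (-6.70 and -7.72), psaB, ndhC and the atpB-atpE pair near 0, and petL above 0 in both groups.

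Between replicates of the other 10 groups the chloroplast genes varied much less. The median absolute gap over the 43 was 0.07 in Ws at 0 mM NaCl, 0.08 in Col(gl) at 0 mM NaCl and 0.09 in Col(gl) at 100 mM NaCl. It was 0.11 in Col at 0 mM NaCl, and 0.16 and 0.32 in SOS1 at 100 mM and 0 mM NaCl. In M6PR it was 0.35 at 100 mM and 0.22 at 0 mM NaCl. In both CBF3 groups replicate 1 was mostly the higher array, for 39 of 43 probe sets at 100 mM NaCl and 40 of 43 at 0 mM NaCl, with median gaps of 0.34 and 0.36. No such count over all probe sets is given, so this is not shown to be particular to these genes. The widest gaps of single genes were those of psbB (10.68 and 8.38) and psbT (9.49 and 7.30) in M6PR at 0 mM NaCl. In M6PR at 100 mM NaCl, atpI read 5.24 and 7.17.

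The genes of a complex differed in how far they ranged over the 24 arrays. In photosystem I the SD was largest for psaA (lowest 4.25, median 11.99, highest 12.65) and smallest for psaB (12.33, 13.22 and 13.51). In photosystem II it was largest for psbB (lowest 4.75, median 9.81) and psbD (5.28, 10.82 and 11.54), both with an SD of 1.62, and smallest for psbJ (10.70, 11.31 and 11.65). Over all arrays psbA ran over 6.26, 11.03 and 12.40, and rbcL over 6.20, 10.42 and 11.45. In cytochrome b6f petG had the largest SD (3.54, 7.30 and 8.94) and petA the smallest (11.92, 12.44 and 12.83).

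In the ATP synthase atpH had the largest SD (7.77, 11.79 and 12.63) and atpE the smallest (13.23, 13.63 and 13.79), and in NDH these were ndhE of the membrane arm (4.27, 8.76 and 9.62) and ndhC (11.24, 11.68 and 11.89). Without the low pair the spread of psaA was smaller, with an SD of 0.868 over 22 arrays, against 2.25 over 24. For atpH it was 1.05 over 22 arrays, against 1.41 over 24. For atpE, atpB and ndhC the SD over 22 arrays was 0.130, 0.141 and 0.155.

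Col(gl) plants at 0 mM NaCl had the lowest signals of the 22 arrays for many of these genes. Both of their arrays lay below the other 20 for 16 of 43 probe sets (37.2%), where this held for 1.42% of all probe sets. By complex this was 3 of 5 in photosystem I (psaA, psaB, psaI), 3 of 15 in photosystem II (psbC, psbD, psbH), 1 of 6 in cytochrome b6f (petA, which encodes cytochrome f), 5 of 6 in the ATP synthase (all but atpI), 3 of 10 in NDH (ndhD, ndhJ, ndhK), and rbcL. It also held for 11 of 26 probe sets of other chloroplast genes, 0 of 18 of mitochondrial genes and 0 of 8 of nuclear photosynthesis genes. The signal for 25S rRNA in these samples was 8.73 and 8.31, the dap mean was 8.43 and 8.40 and the actin difference 2.86 and 2.63, all inside the range of the other 20. The dap means were near the top of that range, below only 8.95 on replicate 1 of M6PR at 100 mM NaCl.

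The SOS1 line lay above these wild-type arrays at 0 mM NaCl. The atpH probe set read 11.96 and 12.03 in SOS1, against 8.70 and 8.40 in Col(gl), a difference of 3.44. The psaA probe set read 12.65 and 12.39 in SOS1, against 9.50 and 9.43 in Col(gl), a difference of 3.05. The rbcL probe set read 10.78 and 11.45 in SOS1, against 8.82 and 8.70 in Col(gl), a difference of 2.36. In each case both SOS1 arrays lay above both Col(gl) arrays. The psaB probe set read 13.34 and 13.34 in SOS1, against 12.33 and 12.42 in Col(gl), and atpA read 13.06 and 13.08 in SOS1, against 11.53 and 11.48 in Col(gl).

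The number of these differences that passed in limma, which estimates the spread of a gene from all groups, was not the same over 24 and 22 arrays. Over 24 arrays 2 of 43 were called higher and 0 lower at an adjusted p under 0.05, against 0.356% and 0.879% of all probe sets: psaB (0.96 ± 0.164, SE, adjusted p = 0.011) and atpA (1.57 ± 0.287, adjusted p = 0.017). The difference of 3.05 for psaA had an SE of 1.88 (adjusted p = 0.50). Over the 22 arrays the same group means were compared with a spread that no longer held the low pair, and the SE of psaA was 0.288 (adjusted p = 0.00018). There 12 of 43 were called higher and 0 lower, against 0.576% and 0.725% of all probe sets. Without replicate 1 of Col(gl) at 0 mM NaCl as well, 6 were called. Over 24 arrays the count was 0 when either Col(gl) 0 mM array or SOS1 0 mM replicate 1 was left out, and 4 when either Col 100 mM array was.

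By complex, the genes called higher in SOS1 over the 22 arrays were 3 of 5 in photosystem I, 2 of 15 in photosystem II, 0 of 6 in cytochrome b6f, 3 of 6 in the ATP synthase, 3 of 10 in NDH, and rbcL. In photosystem I the small subunit psaI (1.80 ± 0.208, adjusted p = 0.00088) joined psaA and psaB. In the ATP synthase the called genes were atpH (adjusted p = 1.9e-05), atpF (2.99 ± 0.223, adjusted p = 5e-05) and atpA (adjusted p = 5.2e-05), all of 1 transcript. Its remaining gene atpI differed by 2.30 ± 0.536 (adjusted p = 0.054). The atpB and atpE genes of the other transcript differed by 0.34 ± 0.119 and 0.37 ± 0.109 (adjusted p = 0.19 and 0.12).

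In photosystem II the called genes were psbD (2.00 ± 0.345, adjusted p = 0.014) and psbC (1.37 ± 0.178, adjusted p = 0.0021), which share a transcript. The gene psbB differed by 2.09, with a wider SE of 0.594 (adjusted p = 0.11), and psbA by 1.02 ± 0.297 (adjusted p = 0.12). The gene psbE, of cytochrome b559, differed by -0.14, with a 95% interval of -0.60 to 0.31. In NDH the called genes were ndhK (1.85 ± 0.299, adjusted p = 0.0095), ndhJ (1.33 ± 0.282, adjusted p = 0.040) and ndhD (1.16 ± 0.159, adjusted p = 0.0032). The gene ndhC, on the transcript of ndhK and ndhJ, differed by -0.27, with a 95% interval of -0.57 to 0.04. The gene rbcL rose by 2.36 ± 0.347 (adjusted p = 0.0052).

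The median difference was 1.93 over the 6 ATP synthase genes, 1.63 over the 5 of photosystem I, 0.84 over the 10 of NDH, 0.40 over the 6 of cytochrome b6f and 0.31 over the 15 of photosystem II. Over all 43 it was 0.63, and over all 22746 probe sets -0.01. The 26 other chloroplast probe sets had a median of 0.81, with 10 called higher over the 22 arrays. Of 18 mitochondrial and 8 nuclear photosynthesis probe sets 0 were called, with medians of 0.16 and -0.04. Among 5 nuclear genes for assembly and RNA editing of NDH subunits, 1 was called higher, namely CRR28 (1.05), which encodes an editing factor and was picked out after its value was seen.

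**Figure D4:**
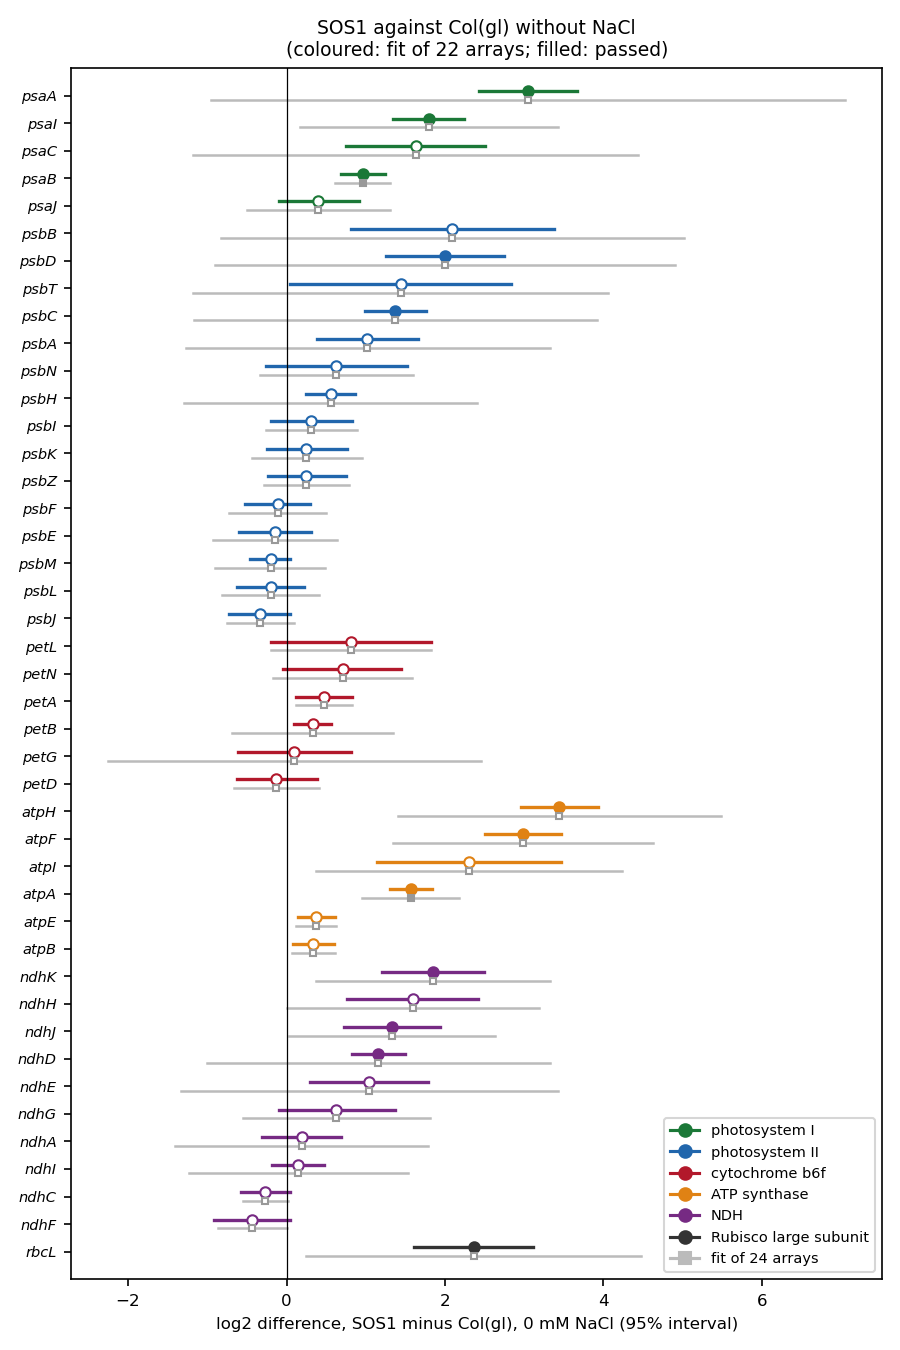
Difference of SOS1 minus Col(gl) at 0 mM NaCl (log2) with its 95% interval for each of the 43 probe sets, from the fit over 22 arrays (coloured circles) and over 24 arrays (grey squares); filled marks passed an adjusted p under 0.05. The estimates are equal in both fits and the grey intervals are wider for most genes, so 12 circles but only 2 squares (psaB, atpA) are filled.

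The SOS1 line was also compared with Col(gl) at 100 mM NaCl. The atpH probe set read 12.24 and 11.98 in SOS1, against 11.88 and 11.77 in Col(gl), and psaA read 12.54 and 12.35 in SOS1, against 12.12 and 12.14 in Col(gl). The median difference over the 43 was -0.01. By limma 0 of 43 passed over 24 arrays (3.13% of all probe sets) and 0 over the 22 arrays (3.13%). An unadjusted p under 0.05 held for 0 over 24 arrays (3277 of all 22746 probe sets) and for 1 over the 22 (3457). The smallest p-values over 24 arrays were those of ndhF (-0.29, adjusted p = 0.61) and psbN (0.54, adjusted p = 0.68). The 95% interval for rbcL over the 22 arrays was -0.73 to 0.76.

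Salt in Col(gl) was compared with the same low arrays at 0 mM NaCl, so its values are not independent of those above. The psaA probe set read 12.12 and 12.14 at 100 mM NaCl, against 9.50 and 9.43 at 0 mM NaCl. The atpH probe set read 11.88 and 11.77 at 100 mM NaCl, against 8.70 and 8.40 at 0 mM NaCl. The rbcL probe set read 10.53 and 10.88 at 100 mM NaCl, against 8.82 and 8.70 at 0 mM NaCl. In all of these the salt-treated arrays were the higher.

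Over 24 arrays 1 of 43 was called higher and 0 lower, against 0.0747% and 0.0572% of all probe sets, namely psaB (0.92 ± 0.164, adjusted p = 0.044). That call was lost without any single array of Col(gl), or of Ws, Col or M6PR at 0 mM NaCl, and the count was 2 without any single array of Ws or Col at 100 mM NaCl. Over the 22 arrays 10 of 43 were called higher and 0 lower, against 0.167% and 0.0747%. These were psaA (2.66 ± 0.288, adjusted p = 0.00088), psaB, psaI, psbC, atpA, atpF, atpH (3.28 ± 0.225, adjusted p = 3.5e-05), ndhD, ndhK and rbcL (1.95 ± 0.347, adjusted p = 0.040). Without Col(gl) 0 mM replicate 1 or Col(gl) 100 mM replicate 2, the count was 6. The median over the 43 was 0.70, against -0.02 over all probe sets.

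Salt in the SOS1 line had a median of 0.04 over the 43, from -0.47 to 0.52. By limma 0 passed over 24 arrays (0.0% of all probe sets) and 0 over the 22 arrays (0.00879%). An unadjusted p under 0.05 held for 0 over 24 arrays (1694 of all 22746 probe sets) and for 0 over the 22. The smallest p-values over 24 arrays were those of psbI (0.24, adjusted p = 0.86) and petD (0.20, adjusted p = 0.88). The interaction, which is the salt difference in SOS1 minus that in Col(gl), was called for 0 of 43 over 24 arrays (0.0%). An unadjusted p under 0.05 held for 6, against 672 of all 22746 probe sets. The smallest p-values were those of psaB (-0.82), atpA (-1.42) and atpE (-0.45), each with an adjusted p of 1.0. Over the 22 arrays the interaction was called lower for 6 of 43 and higher for 0, against 0.0659% and 0.0% of all probe sets. These were atpH (-3.16 ± 0.318, adjusted p = 0.0037), atpF, atpA, psaA, psaI and psbC. Without any single Col(gl) array the count was 1, and without SOS1 100 mM replicate 2 it was 3.

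**Figure D5:**
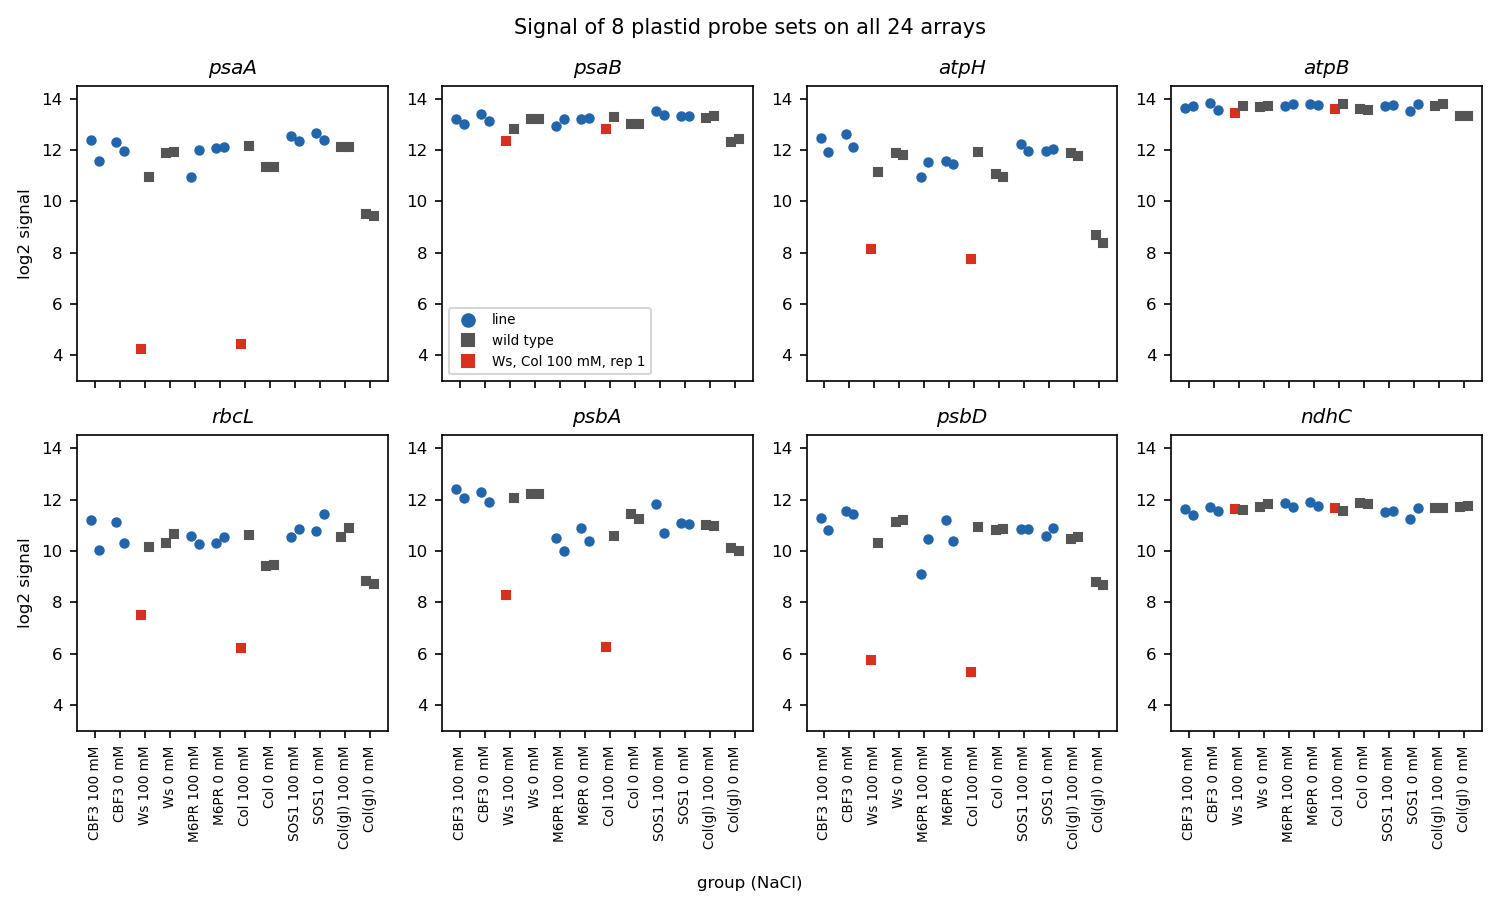
Log2 signal of 8 chloroplast probe sets on all 24 arrays, by group, with the lines as circles, the wild types as squares and the pair of low arrays in red. On the red arrays psaA, atpH, rbcL, psbA and psbD lie below all others, while psaB, atpB and ndhC lie within the range of the others; psaA, psaB, atpH, atpB, rbcL and psbD have their lowest values of the remaining 22 in Col(gl) at 0 mM NaCl.

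The comparison of salt in Ws contains the low replicate 1. The psaB probe set read 12.37 and 12.81 at 100 mM NaCl, against 13.23 and 13.21 at 0 mM NaCl. The psbI gene, which encodes a small photosystem II subunit, read 10.23 and 10.78 at 100 mM NaCl, against 11.66 and 11.46 at 0 mM NaCl. For both genes the arrays of the 2 salt levels did not overlap. Over 24 arrays these were the 2 of 43 called lower, with 0 higher, against 2.09% and 2.62% of all probe sets: psaB by -0.63 ± 0.164 (adjusted p = 0.040) and psbI by -1.06 ± 0.269 (adjusted p = 0.036). In all, 30 of 43 had an unadjusted p under 0.05, against 4475 of all 22746 probe sets.

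Without the low pair the median salt difference in Ws was -0.41, against -1.66 over 24 arrays, and 1 of 43 was called lower and 0 higher, against 0.317% and 0.906% of all probe sets. That gene was psbC, which read 10.98 on the remaining array at 100 mM NaCl, against 12.01 and 11.97 at 0 mM NaCl (-1.01 ± 0.218, adjusted p = 0.042). In this fit Ws at 100 mM NaCl has 1 array, which is assumed to vary like the other groups. The psaB difference was then -0.41 (adjusted p = 0.29) and the psbI difference -0.79 (adjusted p = 0.28). The count over 24 arrays changed when single arrays were left out, with the range given under how the results depend on the processing. The count was 0 without the low replicate 1 itself, 0 or 1 when an array of Ws, Col, M6PR or Col(gl) at 0 mM NaCl was left out, and 0 without either Col(gl) 100 mM array.

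Salt in Col turned its direction with the low array. The median over the 43 was -0.68 over 24 arrays and 0.20 over the 22. The psaA probe set read 4.43 and 12.15 at 100 mM NaCl, against 11.36 and 11.35 at 0 mM NaCl, so that it was -3.06 with the low array and 0.80 without it. The rbcL probe set read 6.20 and 10.63 at 100 mM NaCl, against 9.42 and 9.47 at 0 mM NaCl, which gave -1.03 with the low array and 1.19 without it. The psbA signal was lower on both arrays, at 6.26 and 10.58 at 100 mM NaCl, against 11.42 and 11.23 at 0 mM NaCl (-2.90 ± 1.08 over 24 arrays, adjusted p = 0.068, and -0.74 ± 0.364 over the 22, adjusted p = 0.23).

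By limma 0 of 43 passed for salt in Col over 24 arrays, where 20.9% of all probe sets did. In that fit 6 had an unadjusted p under 0.05, against 7853 of all 22746 probe sets. In the 22 arrays, where Col at 100 mM NaCl has 1 array, 0 passed (7.61%). When single arrays were left out, the count was highest with the low replicate 1 as the only Col array at 100 mM NaCl. The range is given under how the results depend on the processing. The smallest p-values over 24 arrays were those of psbE (-1.02, adjusted p = 0.062) and petL (1.31, adjusted p = 0.063). When the low pair was left out they were -0.47 for psbE (adjusted p = 0.28) and 0.89 for petL (adjusted p = 0.37). The smallest adjusted p over the 22 arrays was that of atpF (0.93 ± 0.273, adjusted p = 0.054), followed by atpH (0.93 ± 0.275, adjusted p = 0.056).

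CBF3 against Ws at 100 mM NaCl also contains the low Ws array. The psbK gene, which encodes a small photosystem II subunit, read 12.70 and 11.95 in CBF3, against 10.69 and 11.71 in Ws (1.13 ± 0.325, adjusted p = 0.070). The psaB probe set differed by 0.53 ± 0.164 (adjusted p = 0.091). Without the low pair the differences were 0.62 ± 0.287 for psbK (adjusted p = 0.47) and 0.31 ± 0.155 for psaB (adjusted p = 0.51). The psbA probe set read 12.40 and 12.06 in CBF3, against 8.29 and 12.05 in Ws. The median over the 43 was 1.24 over 24 arrays and 0.28 over the 22. By limma 0 of 43 passed over 24 arrays (3.73% of all probe sets) and 0 passed over the 22 arrays (1.4%). There were 21 at an unadjusted p under 0.05 over 24 arrays, against 4217 of all 22746 probe sets. When single arrays were left out, the count was highest with the low replicate as the only Ws array at 100 mM NaCl. The range is given under how the results depend on the processing.

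At 0 mM NaCl the median difference between CBF3 and Ws was -0.03 over the 43, with a range from -0.52 to 0.55. By limma 0 of 43 passed over 24 arrays (6.79% of all probe sets) and 0 over the 22 arrays (7.23%). An unadjusted p under 0.05 held for 0 over 24 arrays (4265 of all 22746 probe sets) and for 1 over the 22 (4492). The petN probe set, of a small cytochrome b6f subunit, read 7.97 and 7.28 in CBF3, against 7.10 and 7.05 in Ws (0.55, adjusted p = 0.56), and psbJ differed by -0.24 (adjusted p = 0.61). The 95% interval over the 22 arrays was -0.51 to 0.98 for rbcL and -0.75 to 0.53 for psbA.

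In M6PR against Col the smallest p over 24 arrays at both salt levels was that of petL, with opposite signs. At 100 mM NaCl it read 8.40 and 9.60 in M6PR, against 10.51 and 9.66 in Col (-1.09 ± 0.475, adjusted p = 0.19). With the low pair left out this was -0.66 ± 0.572 (adjusted p = 0.65). At 0 mM NaCl it read 9.59 and 10.26 in M6PR, against 8.86 and 8.69 in Col (1.15 ± 0.475, adjusted p = 0.17). The interaction was -2.24 ± 0.672 over 24 arrays (adjusted p = 0.062) and -1.81 ± 0.738 over the 22 (adjusted p = 0.22). Neither the differences nor the interaction passed.

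Over the 43, M6PR against Col had a median of 0.47 at 100 mM NaCl over 24 arrays and of -0.28 over the 22. By limma 0 passed over 24 arrays (0.528% of all probe sets). An unadjusted p under 0.05 held for 2, against 5304 of all 22746 probe sets. Over the 22 arrays, where Col at 100 mM NaCl has 1 array, the 43 differences ran from -1.96 to 0.23, and no count is given. After petL, the smallest p over 24 arrays was that of psbC (2.62, adjusted p = 0.20), whose sign turned without the low array (-0.35 over the 22, adjusted p = 0.56). Here too the count changed when single arrays were left out, with the range given under how the results depend on the processing. At 0 mM NaCl the median was 0.20, and 0 passed over 24 arrays (10.3%) and 0 over the 22 (10.5%). An unadjusted p under 0.05 held for 1 over 24 arrays (4618 of all 22746 probe sets) and for 7 over the 22 (4733). After petL came atpB (0.20, adjusted p = 0.45). The rbcL probe set read 10.29 and 10.54 in M6PR, against 9.42 and 9.47 in Col, a difference of 0.97 with a 95% interval over the 22 arrays of 0.22 to 1.72 (adjusted p = 0.11).

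Within the CBF3 and M6PR lines 100 mM NaCl was compared with 0 mM NaCl on arrays outside the low pair. The median over the 43 was -0.14 in CBF3 and -0.25 in M6PR, against 0.0 and 0.01 over all probe sets. Of the 43 differences 36 and 42 were below 0, with no such count over all probe sets beside them, and many genes share transcripts. In M6PR at 100 mM NaCl, 9 of 43 lay over 1 log2 unit below their median over the 22 arrays on replicate 1, and 3 on replicate 2. By limma 0 of 43 passed over 24 arrays in CBF3 (0.00879% of all probe sets) and 0 in M6PR (0.541%). An unadjusted p under 0.05 held for 0 in either, against 743 of all 22746 probe sets in CBF3 and 2321 in M6PR. Over the 22 arrays 0 passed in CBF3 (0.022%) and 0 in M6PR (0.435%). The unadjusted count there was 1 in CBF3, against 980 of all probe sets. In M6PR it was 7, with no count over all probe sets beside it. The smallest p-values over 24 arrays were those of petL (-0.54) and psbL (-0.32) in CBF3, both with an adjusted p of 1.0, and of petL (-0.93, adjusted p = 0.56) and ndhG (-1.06, adjusted p = 0.57) in M6PR. For rbcL the 95% interval over the 22 arrays was -0.83 to 0.66 in CBF3 and -0.73 to 0.76 in M6PR.

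The CBF3 by salt interaction passed for 0 of 43 over 24 arrays (0.0703% of all probe sets) and for 0 over the 22 (0.0923%). Its unadjusted p was under 0.05 for 1 over 24 arrays, against 2577 of all 22746 probe sets. The smallest p-values over 24 arrays were those of ndhG (1.76, adjusted p = 0.41), psbK (0.97, adjusted p = 0.44) and ndhA (2.23, adjusted p = 0.45). Without the low pair they were 1.09 for ndhG (adjusted p = 0.89), 0.46 for psbK (adjusted p = 0.99) and 0.39 for ndhA (adjusted p = 1.0). Its median was 1.42 with the low pair and 0.25 without it. The M6PR by salt interaction passed for 0 of 43 over 24 arrays (6.08%) and for 0 over the 22 (1.61%). Its unadjusted p was under 0.05 for 1 over 24 arrays, against 5248 of all 22746 probe sets. After petL came psbE (0.87, adjusted p = 0.32) and psbA (2.52, adjusted p = 0.33) over 24 arrays. Without the low pair these were 0.32 (adjusted p = 0.63) and 0.36 (adjusted p = 0.71). Its median was 0.34 with the low pair and -0.47 without it. For both interactions the count changed when single arrays were left out, with the ranges given under how the results depend on the processing.

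Between genetic backgrounds, the 7 arrays of CBF3 and Ws and the 15 arrays of the Columbia backgrounds and their lines were set side by side without the low pair. The psbA signal was higher on all 7, between 11.92 and 12.40, against 9.98 to 11.82 on the 15. The NDH gene ndhI, of the peripheral arm, was lower on all 7, between 12.30 and 12.76, against 12.90 to 13.40 on the 15. All 7 arrays lay above the 15 for 1 of 43 (1.5% of all probe sets) and below them for 1 of 43 (1.43%), shares near those of all probe sets.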

How the data were processed

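Leaf RNA was measured on 24 arrays. Per the submitters' processing notes, the authors used GCOS and RMA, with versions not given in the sources used here. Values were used as deposited, and their range fits a log2 scale, which the labels do not state. Because RMA brings arrays to 1 distribution, a shift common to most probe sets would be reduced. Detection calls were not used here.

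After 64 controls were removed, 22746 probe sets were tested. The gene table gives 1 gene for 13513 of them, several for 503 and none for 8730. Gene IDs matched RefSeq (TAIR10.1) for 13436, which supplied current symbols. No sequences are printed.

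The model was fitted in limma 3.58.1 (R 4.3.3), with 1 mean per group over 24 arrays (12 residual and 3.11 prior degrees of freedom), two-sided, and Benjamini-Hochberg adjustment over all tested probe sets. An adjusted p under 0.05 was called, in 12 two-group comparisons and 3 interactions. Errors are SE of that fit, and intervals are 95%. The fit over 22 arrays leaves out the pair with low dap signal (10 residual and 3.23 prior degrees of freedom), so Ws and Col at 100 mM NaCl have 1 array there. Other alternatives were quantile normalization, centring, a filter on the dimmest 40% of probe sets, a separate fit per background, a replicate block and leaving out each array. The number of arrays limits the precision. The scripts were tested on simulated data.

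The genes and lists were chosen with earlier results of these data known. Lists of other chloroplast genes (26 measured of 40), mitochondrial genes (18 probe sets), nuclear photosynthesis genes (8 of 42), nuclear genes for the assembly of NDH (5 of 13), and root, anther, seed and senescence markers were described by counts and medians. Named genes were those that passed, otherwise the 2 with the smallest p (3 for interactions), the genes with the largest and smallest SD per complex, and rbcL and psbA.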

Additional observations from a re-analysis of the deposited data

Results flagged for a closer look

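The salt difference in SOS1 minus that in Col(gl) was called for 6 genes in limma's interaction test over the 22 arrays. These are listed because they passed in that fit. The interaction was -3.16 for atpH (adjusted p = 0.0037), -2.74 for atpF (adjusted p = 0.0089), -1.42 for atpA (adjusted p = 0.010), -2.74 for psaA (adjusted p = 0.031), -1.98 for psaI (adjusted p = 0.031) and -1.61 for psbC (adjusted p = 0.033). The atpH probe set read 12.24 and 11.98 in SOS1 at 100 mM NaCl and 11.96 and 12.03 in SOS1 at 0 mM NaCl, against 11.88 and 11.77 in Col(gl) at 100 mM NaCl and 8.70 and 8.40 in Col(gl) at 0 mM NaCl. The Col(gl) arrays at 0 mM NaCl were the lowest of these 8, and why they were low was not tested. Over 24 arrays 0 of these passed, and without any single Col(gl) array 1 did.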

How the results depend on the processing

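The counts called over 24 arrays moved by over 1.5 times as follows. For SOS1 against Col(gl) at 0 mM NaCl (2 as reported), a separate fit per background gave 10 and the 22 arrays 12; for salt in Col(gl) (1), these gave 10 and 10, and quantile normalization and centring gave 0; for the SOS1 by salt interaction (0), they gave 3 and 6. For salt in Ws (2), centring gave 4, a separate fit 0 and the 22 arrays 1. For salt in Col (0), centring gave 3 and leaving out the dimmest 40% of probe sets 2, and that filter gave 1 for the M6PR by salt interaction (0). Leaving out each array in turn gave 0 to 4 for SOS1 against Col(gl) at 0 mM NaCl, 0 to 2 for salt in Col(gl), 0 to 29 for salt in Ws, 0 to 20 for salt in Col, 0 to 23 for CBF3 against Ws and 0 to 6 for M6PR against Col at 100 mM NaCl, 0 to 6 for the CBF3 and 0 to 2 for the M6PR interaction; for the other comparisons it gave 0 throughout. Alternatives to the 22 arrays were chosen after seeing the data: leaving out a further array gave 6 to 14 calls for SOS1 against Col(gl) at 0 mM NaCl (12), 6 to 10 for salt in Col(gl) (10) and 1 to 8 for the interaction (6), and quantile normalization gave 16, 12 and 7. Counts with single arrays left out, here and above, have no share of all probe sets beside them. The fold changes of groups without the low pair are equal over 24 and 22 arrays, and only their errors differ. Of the values of named genes over these settings, 2214 kept their direction and side of the threshold, 88 passed where the reported value did not, 44 no longer passed and 22 turned their sign, none of which passed on either side. The sign turned over the 22 arrays for psbA (-0.34, against 1.82), psbC (-0.35, against 2.62) and rbcL (-0.20, against 2.01) in M6PR against Col at 100 mM NaCl and for rbcL in salt in Col (1.19, against -1.03). Leaving out each array in turn gave -0.34 to 3.98, -0.35 to 5.6, -0.20 to 4.23 and -3.25 to 1.19 for these. It also turned petL (-1.31 to 0.23), psbA (-0.06 to 0.30) and rbcL (-0.66 to 0.49) for salt in CBF3, psbA (-0.29 to 0.07) and rbcL (-0.17 to 0.64) in CBF3 against Ws at 0 mM NaCl, psbA (-0.31 to 0.82) and rbcL (-0.16 to 0.18) in SOS1 against Col(gl) at 100 mM NaCl, psbA for salt in SOS1 (-0.39 to 0.75) and rbcL for salt in M6PR (-0.15 to 0.18). With quantile normalization rbcL was -0.03 in SOS1 against Col(gl) at 100 mM NaCl, against 0.01. Groups share replicate numbers only by name, and deviations of same-numbered arrays correlated between -0.357 and 0.551 over the two-group comparisons. With the replicate block, the count was 2 for SOS1 against Col(gl) at 0 mM NaCl, as without it, and no other count over 24 arrays changed. With 2 arrays a group, a difference that did not pass may still exist, and saturation and detection of single probe sets were not checked.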

Other observations

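Genes outside the 43 that followed them most closely were mostly also of the chloroplast genome. Against the mean of the 43 centred values on each array, the highest Pearson r over 24 arrays among single-gene probe sets was that of rpoC1 (0.983), which encodes a subunit of the plastid RNA polymerase. It was followed by ycf4 (0.954), accD (0.949), SIZ1 (0.942) and ccsA (0.936). SIZ1 is a nuclear gene of chromosome 5 that encodes a SUMO ligase. Over the 22 arrays the highest were rpoC1 (0.926), accD (0.911), which encodes a subunit of acetyl-CoA carboxylase, clpP (0.907), which encodes a protease subunit, rpl16 (0.902) and rps2 (0.894), both of ribosomal proteins. These values describe arrays that share the low pair or the Col(gl) arrays at 0 mM NaCl.

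The replicate gap of the 43 in the low pair was also set beside the difference of Col(gl) at 0 mM NaCl from Col(gl) at 100 mM NaCl. Across the 43 genes the gap in Ws correlated with that difference at r = 0.522 (Spearman rho = 0.549) and the gap in Col at r = 0.733 (rho = 0.740), over arrays that are not shared. The genes are not independent, since many share a transcript.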
